A study of Mus musculus with 8 samples.

Results

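The genes described here are 30 genes of sterol synthesis, of its control by the transcription factor SREBP2, and of cholesterol transport, esterification, uptake and efflux, measured in mouse liver. They were taken by gene symbol from a deposited table of 20894 genes. Of the 30, 28 had a row in the table and 26 had enough counts for a test, while Insig1 and Soat2 were not analysed here. The livers came from wild-type (WT) mice killed after a fast in the daytime. There were 4 POLR2G libraries, from mice given the vector AAV8-TBG-POLR2G, and 4 GFP control libraries, from mice given AAV8-TBG-GFP. AAV8 is an adeno-associated virus that enters liver cells, and TBG is the promoter of the thyroxine-binding globulin gene, active mainly in hepatocytes. POLR2G is a subunit of RNA polymerase II and GFP is green fluorescent protein. Both groups thus carried a vector, and no library from a mouse without one was analysed here. Neither age nor sex is given in the sources used here. The labels do not say which animal gave which library, and the p-values therefore measure no more than how far these libraries spread.

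Cells make cholesterol from acetyl-CoA through mevalonate, isoprenoids, squalene and lanosterol. When sterol in the endoplasmic reticulum is low, SCAP carries SREBP2 to the Golgi, where it is cleaved into an active factor that turns on most genes of the route, and INSIG proteins hold SCAP back when sterol is high. The liver also takes up cholesterol from HDL, loads it onto HDL, and secretes it into bile through the transporter formed by ABCG5 and ABCG8, whose genes respond to the sterol-sensing nuclear receptors LXR.

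The libraries held 14159056 to 22165491 estimated counts. Polr2g, the gene named in the vector, measured 2412 ± 154 CPM in the POLR2G libraries and 13.7 ± 1.003 CPM in the GFP control libraries (CPM is the count as a share of the TMM-scaled library total, SD, n = 4 each). Every library matched its group, which for 1 POLR2G library was read from the column name, as no label lists its number. The 9 of 10 hepatocyte markers in the table summed to 113493 to 127517 CPM in the POLR2G libraries and 121189 to 142495 CPM in the GFP control libraries. Markers of cholangiocytes, macrophages, stellate cells and fibroblasts, endothelial cells and lymphocytes had overlapping sums in both groups. None of the 6 marker lists had a gene at 0 in every library or a gene past the test. Only 1 of the 5 lymphocyte markers and 3 of the 5 cholangiocyte markers had enough counts for a test. In whole liver, fewer cells of a type and less RNA per cell cannot be told apart.

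No sterol gene passed the test over all genes, but most genes of the synthesis route had lower means in the POLR2G libraries, and Abcg5 and Abcg8 had higher ones. Of the 26 members tested, 0 were called by edgeR's quasi-likelihood test (adjusted p under 0.05), where 0.0385% of 10390 genes were. DESeq2, the other count test, called 1 member, Acat2, where it called 1.35% of all genes, and limma-voom called 0 members. At an unadjusted p under 0.05 edgeR gave 7 members, 26.9% of those tested, where it gave 8.3% of all genes. Of these, 6 members were lower in the POLR2G libraries, 23.1% of those tested, where 4.1% of all genes were lower. They were Acat2, Mvd, Idi1, Fdps, Lss and Sc5d, all of them enzymes of synthesis. In the other direction 1 member, Abcg5, was higher at that level (4.2% of all genes). The groups of libraries did not overlap for 3 members, 11.5% of those tested, against 5.51% of all genes. These were Acat2 and Idi1, which were lower in the POLR2G libraries (2.68% of all genes), and Abcg5, which was higher (2.83%). The median log2 fold change, POLR2G over GFP control, was −0.055 over the 26 members and −0.0031 over all genes tested. The number of members at an unadjusted p under 0.05 was 7 with all libraries, and 4 without POLR2G replicate 4 (6.25% of all genes in that fit) or without GFP control replicate 4 (8.09%).

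**Figure D1:**
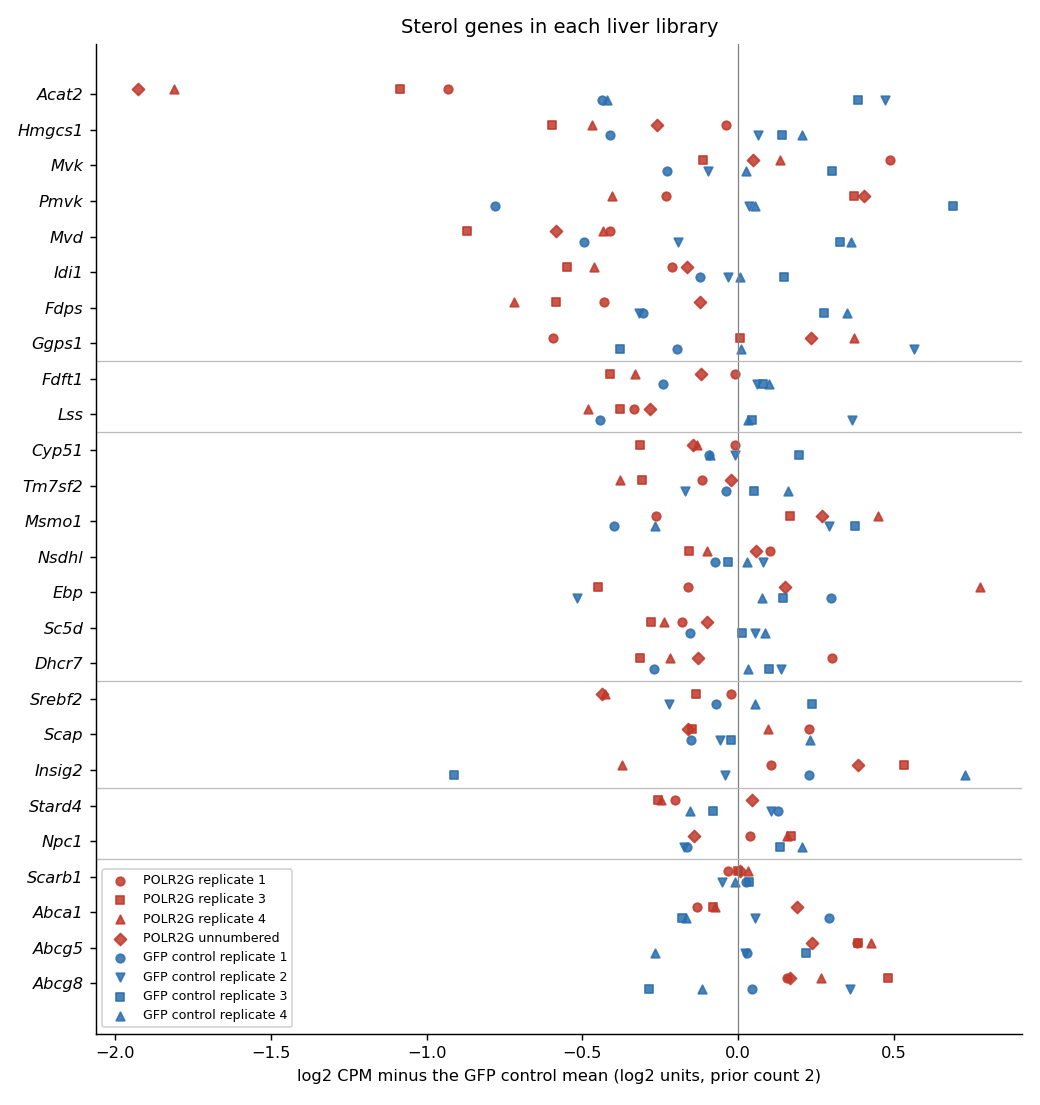
Each point is 1 library's log2 CPM (prior count of 2) minus the mean of the 4 GFP control libraries, for the 26 sterol genes tested in pathway order, with grey lines between role groups. The red POLR2G points lie left of the blue GFP control points without overlap for Acat2 and Idi1 and right of them for Abcg5, and for the other genes the groups overlap.

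Of the 19 synthesis genes, 17 were tested. In the POLR2G libraries 13 of these had lower means (76.5%) and 4 higher, where 50.7% of all genes had a lower mean. Their median log2 fold change was −0.20. It ranged from −0.24 to −0.15 when each library was left out in turn, with 12 to 14 of the 17 lower, and 11 of the 17 were lower with upper quartile scaling. The 8 genes of the mevalonate pathway had a median of −0.34, Fdft1 and Lss of the squalene and lanosterol steps had a median of −0.31, and the 7 tested genes of the later sterol steps had a median of −0.078.

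**Figure D2:**
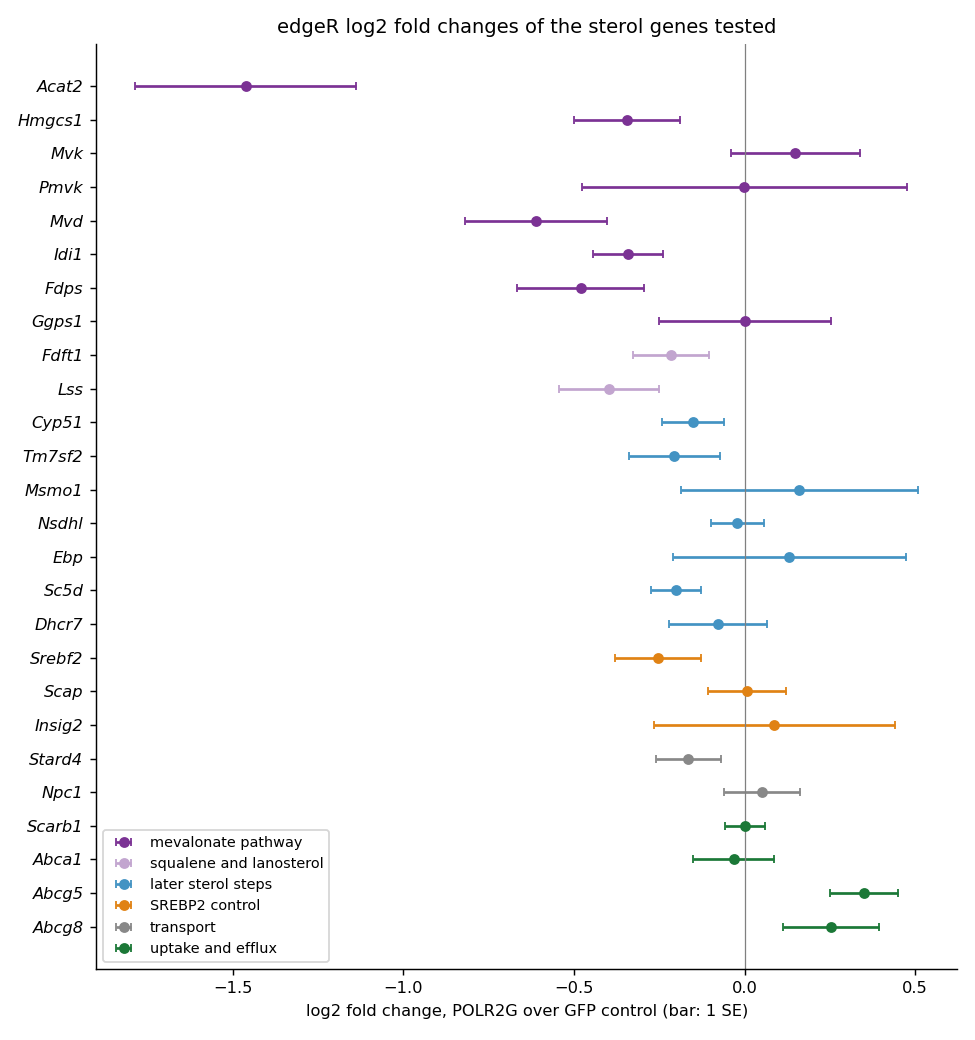
Points are edgeR log2 fold changes, POLR2G over GFP control, and bars are 1 SE, for the 26 sterol genes tested, coloured by role. Values run from −1.46 for Acat2 to 0.35 for Abcg5, with most of the mevalonate, squalene and later sterol genes left of 0.

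The mevalonate pathway runs from acetyl-CoA to the isoprenoid units. Hmgcs1, the gene of the HMG-CoA synthase of the cytosol (chromosome 13, 119690379 to 119708260, plus strand), measured 215 ± 37.0 CPM in the POLR2G libraries and 273 ± 48.4 CPM in the GFP control libraries (SD, n = 4 each). Its log2 fold change was −0.34 (SE 0.156, edgeR adjusted p = 0.603). GFP control replicate 1, at 203 CPM, lay among the POLR2G libraries, which ran from 178 to 262 CPM.

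Mvd encodes the decarboxylase that makes isopentenyl diphosphate (ENSMUSG00000006517, chromosome 8, 122433601 to 122443422, minus strand). It had 10.04, 7.26, 9.86 and 8.86 CPM in POLR2G replicates 1, 3 and 4 and the unnumbered POLR2G library, against 9.44, 11.7, 16.8 and 17.2 CPM in GFP control replicates 1 to 4. GFP control replicates 3 and 4 were high, and replicate 1 lay within the POLR2G range. The log2 fold change was −0.61 (SE 0.208, edgeR adjusted p = 0.464). Mvd has 1 annotated coding transcript.

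Idi1 encodes the isomerase of isopentenyl diphosphate (ENSMUSG00000058258, chromosome 13, 8885501 to 8892451, plus strand). It had 354, 279.99, 297 and 366 CPM in POLR2G replicates 1, 3 and 4 and the unnumbered POLR2G library, against 376, 401, 454 and 412 CPM in GFP control replicates 1 to 4. The groups did not overlap, and the gap between the unnumbered POLR2G library and GFP control replicate 1 was small. Its log2 fold change was −0.34 (SE 0.102, edgeR adjusted p = 0.388), with adjusted p from 0.0656 to 0.761 under the alternatives tried.

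Fdps, the farnesyl diphosphate synthase gene, had a log2 fold change of −0.48 (SE 0.186, edgeR adjusted p = 0.514), at 85.1 ± 15.7 CPM in the POLR2G libraries and 119 ± 29.5 CPM in the GFP control libraries. GFP control replicates 3 and 4, at 140.3 and 148 CPM, stood above the other 6 libraries. The log2 fold changes of Mvk, Ggps1 and Pmvk were smaller than their SE. The mevalonate kinase gene Mvk had a log2 fold change of 0.15 (SE 0.190) and Ggps1, the geranylgeranyl diphosphate synthase gene of a side branch, had 0.00095 (SE 0.253). Pmvk, the phosphomevalonate kinase gene, had 7 to 13 counts in the POLR2G libraries and 5 to 15 in the GFP control libraries (−0.00055, SE 0.476).

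Acat2, which encodes a cytosolic thiolase that joins acetyl-CoA molecules at the start of the route (ENSMUSG00000023832, chromosome 17, 12942890 to 12960747, minus strand), had the log2 fold change farthest from 0 among the 26 members. It had 4.20, 3.75, 2.22 and 2.04 CPM in POLR2G replicates 1, 3 and 4 and the unnumbered POLR2G library, against 5.94, 11.3, 10.6 and 6.01 CPM in GFP control replicates 1 to 4. All POLR2G libraries lay below all GFP control libraries. The log2 fold change was −1.46 (SE 0.323), a 2.75-fold lower level, with edgeR adjusted p = 0.234. DESeq2 gave −1.46 with adjusted p = 0.00325, and the adjusted p over the alternatives that treat Acat2 alone ran from 0.00325 to 0.622.

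Acat3, a close copy of Acat2 (ENSMUSG00000062480, chromosome 17, 12923813 to 12940600, minus strand), is its neighbour and was examined after the values were seen. The coding sequences of both genes were 1191 bases long and 97.7% identical, differing at 27 bases. The first 90 coding bases are shown because 11 of these differences lie there, and bases that differ are in capitals.
Acat2: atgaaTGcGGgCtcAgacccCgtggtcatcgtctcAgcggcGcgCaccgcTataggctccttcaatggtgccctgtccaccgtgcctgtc
Acat3: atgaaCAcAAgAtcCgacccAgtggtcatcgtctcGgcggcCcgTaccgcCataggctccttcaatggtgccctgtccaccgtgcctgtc
Reads from stretches that the copies share can be split between them by the estimation, so the value of each gene alone is uncertain. Acat3 measured 180.4 ± 10.7 CPM in the POLR2G libraries and 150.5 ± 40.9 CPM in the GFP control libraries, a log2 fold change of 0.26 (SE 0.182, edgeR adjusted p = 0.772). Acat2 made up 1.03% to 2.33% of the sum of both genes in the POLR2G libraries and 3.34% to 6.56% in the GFP control libraries. With the counts of both genes added, the sum was 183 ± 9.99 CPM in the POLR2G libraries and 159 ± 42.4 CPM in the GFP control libraries. The log2 fold change of the sum was 0.21 (SE 0.179, edgeR adjusted p = 0.825). Because Acat3 makes up nearly all of the sum, this value follows Acat3 and says little about Acat2. GFP control replicate 1 was the lowest library in the sum, at 98.9 CPM against 161 to 196 CPM in the other 3 GFP control libraries. Without that library the log2 fold change of the sum was 0.036 (SE 0.0848, edgeR adjusted p = 0.957), and without GFP control replicate 2 it was 0.32 (SE 0.181, edgeR adjusted p = 0.711).

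**Figure D3:**
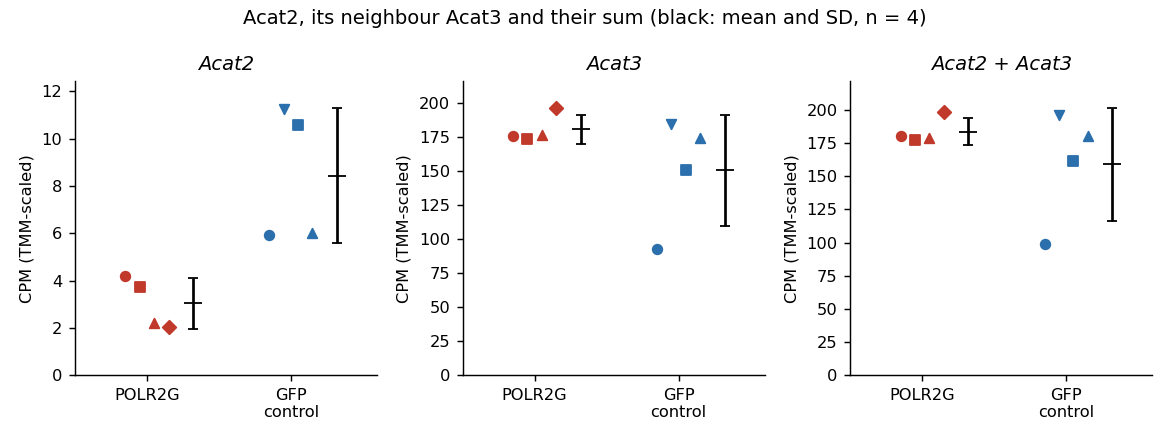
CPM per library of Acat2, of Acat3 and of their sum, with POLR2G libraries in red, GFP control libraries in blue, and the mean and SD (n = 4) in black on axes that start at 0. Acat2 is lower in all 4 POLR2G libraries, while the sum is 177 to 198 CPM in the POLR2G libraries and 98.9 to 196 CPM in the GFP control libraries.

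The squalene and lanosterol steps commit isoprenoids to sterols. Fdft1, the squalene synthase gene, measured 123 ± 15.8 CPM in the POLR2G libraries and 142 ± 15.01 CPM in the GFP control libraries, with a log2 fold change of −0.22 (SE 0.110, edgeR adjusted p = 0.659). Lss, the lanosterol synthase gene, measured 34.9 ± 2.02 CPM in the POLR2G libraries and 45.9 ± 10.2 CPM in the GFP control libraries (−0.40, SE 0.147, edgeR adjusted p = 0.5). Its POLR2G libraries ran from 32.2 to 36.96 CPM, and GFP control replicate 1, at 33.1 CPM, was within that range while the other 3 lay above it. Sqle, the squalene epoxidase gene, was listed at 0 in all 8 libraries, so no comparison was made.

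The later steps turn lanosterol into cholesterol. Sc5d, the lathosterol oxidase gene, measured 211 ± 11.4 CPM in the POLR2G libraries and 242 ± 17.4 CPM in the GFP control libraries, a log2 fold change of −0.20 (SE 0.0736, edgeR adjusted p = 0.494). Cyp51, the lanosterol demethylase gene, had −0.15 (SE 0.0904), the sterol reductase gene Tm7sf2 −0.21 (SE 0.133), and Dhcr7, the gene of the reductase that makes cholesterol from its last precursor, −0.078 (SE 0.143). Nsdhl, a sterol dehydrogenase gene with 1 annotated coding transcript, measured 96.8 ± 8.31 CPM in the POLR2G libraries and 98.2 ± 4.61 CPM in the GFP control libraries (−0.021, SE 0.0768).

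Msmo1, the methylsterol monooxygenase gene, had 16 to 23 counts in the POLR2G libraries and 12 to 20 in the GFP control libraries (log2 fold change 0.16, SE 0.348). Ebp, the sterol isomerase gene, had 25 to 63 counts in the POLR2G libraries and 24 to 45 in the GFP control libraries (0.13, SE 0.341). Hsd17b7, a sterol ketoreductase gene, had 1 to 7 counts in the POLR2G libraries and 1 to 10 in the GFP control libraries, and was not tested. GENCODE M21 lists 3 coding transcripts for Msmo1, and 2 each for Sqle, Ebp and Hsd17b7. Whether the table's values hold all transcripts of a gene was not tested.

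Promoters are shown for 3 enzyme genes of the mevalonate pathway. Hmgcs1 is there because it was the only one of the members with a window that held the sterol element searched for, and Mvd and Idi1 because they are described by library above. The windows run from 250 bases before to 50 after the RefSeq start (GRCm38.p6), 5′ to 3′ on the gene's strand. Capitals mark matches, on either strand, to TCACNCCAC (a sterol element pattern), CCAAT (the box bound by NF-Y, a factor that works with SREBPs), GGGCGG (a GC box) and CACGTG (an E-box), and no matches overlapped in these windows.
Hmgcs1 (chr13:119690101-119690400, plus strand): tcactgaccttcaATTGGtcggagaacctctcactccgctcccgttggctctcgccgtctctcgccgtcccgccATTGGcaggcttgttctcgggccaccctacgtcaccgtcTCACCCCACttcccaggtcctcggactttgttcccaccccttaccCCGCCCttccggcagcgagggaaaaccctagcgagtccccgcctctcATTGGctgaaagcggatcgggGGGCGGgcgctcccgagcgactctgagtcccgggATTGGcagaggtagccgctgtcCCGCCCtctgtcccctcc
Idi1 (chr13:8885356-8885655, plus strand): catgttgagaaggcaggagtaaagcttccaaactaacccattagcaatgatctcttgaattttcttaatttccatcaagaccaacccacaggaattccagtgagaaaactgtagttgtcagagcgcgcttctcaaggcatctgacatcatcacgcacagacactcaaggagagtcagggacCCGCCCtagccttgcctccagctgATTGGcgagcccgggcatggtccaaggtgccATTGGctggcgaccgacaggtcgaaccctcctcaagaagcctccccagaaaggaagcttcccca
Mvd (chr8:122443373-122443672, minus strand): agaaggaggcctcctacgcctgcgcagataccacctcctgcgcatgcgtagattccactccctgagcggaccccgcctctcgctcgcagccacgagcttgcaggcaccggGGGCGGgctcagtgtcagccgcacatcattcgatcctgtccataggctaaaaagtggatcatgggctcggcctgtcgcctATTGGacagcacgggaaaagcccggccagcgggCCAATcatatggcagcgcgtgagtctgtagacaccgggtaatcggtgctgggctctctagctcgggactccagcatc
The Hmgcs1 window held the sterol element at −137 from the start. A window was found for 23 of the 30 members. The CCAAT box was in 20 of these 23 (87%), where 41.1% of 27025 genes with windows held it. The GC box was in 19 (82.6%, against 38.2% of genes), the E-box in 6 (26.1%, against 8.09%) and the sterol element in 1 (4.35%, against 1.44%). A gene with several windows counts if any of them held the match. By window, the CCAAT box was in 66.7% of 30 member windows (37.4% of all 32851) and the GC box in 73.3% (35.7%). The 27025 genes were not limited to those tested in liver. A comparison with the promoters of tested genes alone was not made. Matches are descriptions of the letters in these windows.

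The genes of SREBP2 control had overlapping groups. Srebf2, which encodes SREBP2 itself (ENSMUSG00000022463, chromosome 15, 82147181 to 82205379, plus strand), had 61.4, 56.8, 46.3 and 46.0 CPM in POLR2G replicates 1, 3 and 4 and the unnumbered POLR2G library, against 59.4, 53.5, 73.6 and 64.7 CPM in GFP control replicates 1 to 4. The groups overlapped, with GFP control replicates 1 and 2 within the POLR2G range. Its log2 fold change was −0.25 (SE 0.127, edgeR adjusted p = 0.65).

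Insig2, which encodes a protein that retains SCAP in the endoplasmic reticulum (ENSMUSG00000003721, chromosome 1, 121304353 to 121332589, minus strand), had 3.96, 5.33, 2.79 and 4.79 CPM in POLR2G replicates 1, 3 and 4 and the unnumbered POLR2G library, against 4.30, 3.54, 1.87 and 6.12 CPM in GFP control replicates 1 to 4. The GFP control libraries held both the lowest and the highest value. The log2 fold change was 0.087 (SE 0.352, edgeR adjusted p = 0.977). Scap, the gene of the SREBP escort protein, measured 142 ± 19.0 CPM in the POLR2G libraries and 142 ± 16.7 CPM in the GFP control libraries (0.0059, SE 0.114).

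Genes of transport inside the cell overlapped between the groups too. Stard4, which encodes a soluble sterol carrier and is itself an SREBP2 target (ENSMUSG00000024378, chromosome 18, 33199355 to 33213862, minus strand), had 188, 181, 182 and 224 CPM in POLR2G replicates 1, 3 and 4 and the unnumbered POLR2G library, against 237, 233, 205 and 195 CPM in GFP control replicates 1 to 4. The unnumbered POLR2G library lay within the GFP control range. The log2 fold change was −0.17 (SE 0.0954, edgeR adjusted p = 0.719). Npc1, which encodes the lysosomal protein that releases cholesterol taken up in lipoproteins (ENSMUSG00000024413, chromosome 18, 12189692 to 12236400, minus strand), had 125, 137, 135 and 109.97 CPM in the POLR2G libraries in the same order, against 108, 108, 133 and 140.02 CPM in GFP control replicates 1 to 4. Each group held low and high libraries, and the log2 fold change was 0.051 (SE 0.111, edgeR adjusted p = 0.943).

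Among the genes of uptake and efflux, Abcg5 and Abcg8 had higher means in the POLR2G libraries and the other genes hardly differed. Abcg5 (ENSMUSG00000040505, chromosome 17, 84658234 to 84683011, minus strand) had 127, 127, 131 and 115 CPM in POLR2G replicates 1, 3 and 4 and the unnumbered POLR2G library, against 99.5, 99.1, 113 and 81.1 CPM in GFP control replicates 1 to 4. The groups did not overlap, though GFP control replicate 3 came close to the unnumbered POLR2G library. The log2 fold change was 0.35 (SE 0.1000), a 1.27-fold higher level, with edgeR adjusted p = 0.36 and a range of 0.0624 to 0.705 over the alternatives.

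Abcg8, the gene of the partner subunit (ENSMUSG00000024254, chromosome 17, 84676302 to 84700333, plus strand), had 25.9, 32.3, 27.9 and 26.0 CPM in the POLR2G libraries in the same order, against 23.9, 29.7, 18.96 and 21.3 CPM in GFP control replicates 1 to 4. GFP control replicate 2 lay within the POLR2G range and the other 3 below it. Its log2 fold change was 0.25 (SE 0.141, edgeR adjusted p = 0.7). The ratio of Abcg5 CPM to Abcg8 CPM was 4.50 ± 0.422 in the POLR2G libraries and 4.32 ± 1.16 in the GFP control libraries (SD, n = 4 each). An exact two-sided permutation test of the log2 ratio gave p = 0.686, where the smallest p that the 70 arrangements allow is 0.0286, and this was the only ratio tested. The annotated spans of both genes overlap on opposite strands. The libraries were stranded, but whether the estimation used the strand is not given in the sources used here, so reads from the shared stretch may be split between the genes.

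From the RefSeq starts used here, the pair is transcribed head to head. These starts lie 110 bases apart on GRCm38.p6 (84683011 for Abcg5 and 84683121 for Abcg8). The annotated span of Abcg8 begins upstream of its RefSeq start used here, at 84676302, within the span of Abcg5. The Abcg8 window, which spans both RefSeq starts, is shown because it serves both genes, with the same motifs in capitals.
Abcg8 (chr17:84682871-84683170, plus strand): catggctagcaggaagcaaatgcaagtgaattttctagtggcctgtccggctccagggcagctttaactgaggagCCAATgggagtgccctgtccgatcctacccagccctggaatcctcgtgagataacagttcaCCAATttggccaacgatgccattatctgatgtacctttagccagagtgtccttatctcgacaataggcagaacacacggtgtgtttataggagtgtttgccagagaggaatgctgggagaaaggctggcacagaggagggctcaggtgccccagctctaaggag
CCAAT was the only motif of the 4 with a match there, at −175 and −114 from that RefSeq start of Abcg8.

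Scarb1, the gene of the HDL receptor SR-BI, measured 44.5 ± 0.813 CPM in the POLR2G libraries and 44.4 ± 1.22 CPM in the GFP control libraries, a log2 fold change of 0.00083 (SE 0.0579, edgeR adjusted p = 0.999), and all 8 libraries lay between 42.8 and 45.5 CPM. Abca1, which encodes the transporter that loads cholesterol onto apolipoprotein A-I, measured 227 ± 23.8 CPM in the POLR2G libraries and 232 ± 36.9 CPM in the GFP control libraries (−0.033, SE 0.119).

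**Figure D4:**
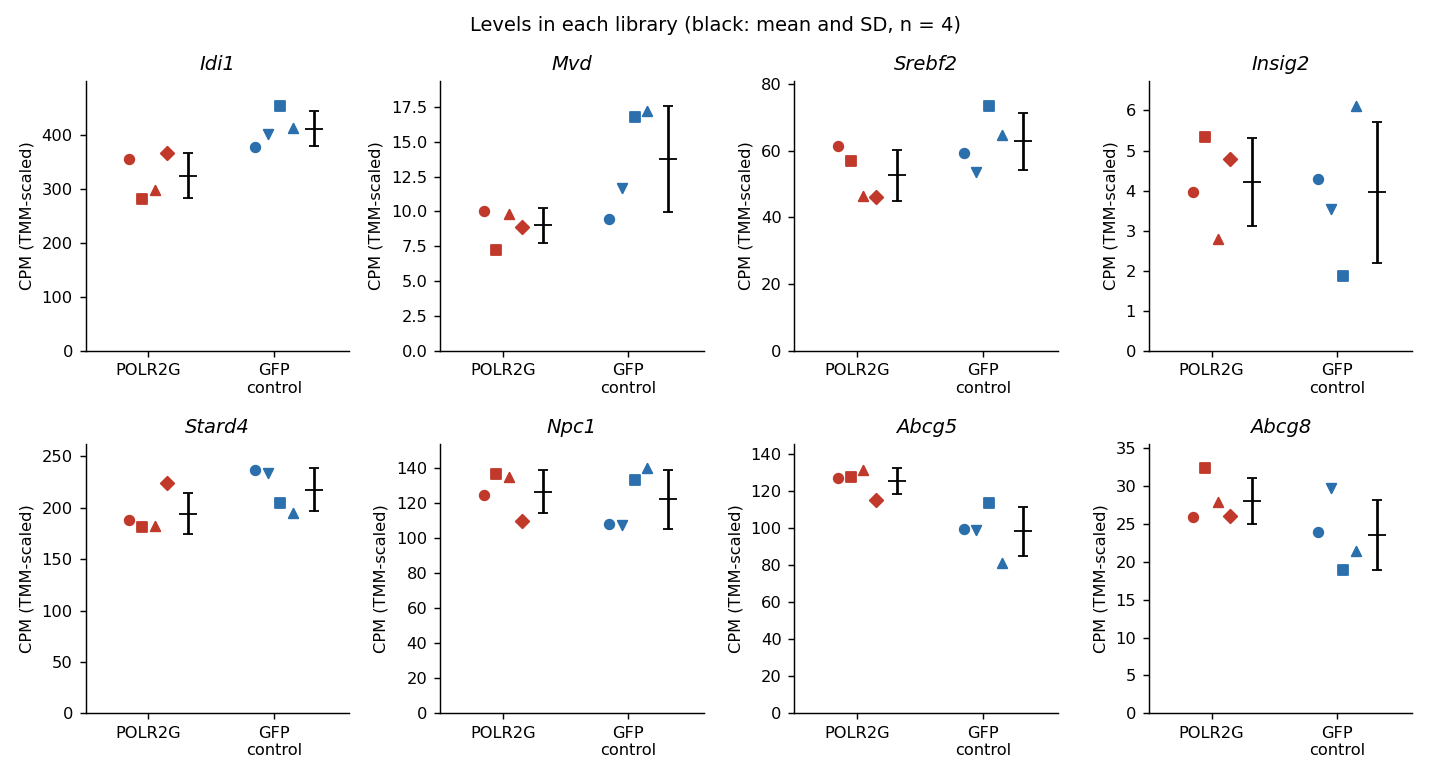
CPM per library of 8 members, with POLR2G libraries in red, GFP control libraries in blue (symbols as in the plot of all members by library), and the mean and SD (n = 4) in black on axes that start at 0. The groups are apart for Idi1, lower in POLR2G, and for Abcg5, higher in POLR2G, and overlap for the other 6.

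The synthesis genes also differed between libraries of 1 group. The median deviation of the 17 tested genes from the GFP control mean was −0.18, −0.31, −0.33 and −0.12 log2 units in POLR2G replicates 1, 3 and 4 and the unnumbered POLR2G library. It was −0.24, 0.055, 0.14 and 0.032 in GFP control replicates 1 to 4. GFP control replicate 1 thus lay among the POLR2G libraries. Without it, 14 of the 17 synthesis genes had lower means in the POLR2G libraries and their median log2 fold change was −0.24. In that fit 9 of the 26 members (34.6%) and 8.01% of all genes were at an unadjusted p under 0.05. The member count varied with the library left out. It was also 9 without POLR2G replicate 1 (6.89% of all genes), but 5 without POLR2G replicate 3 (7.6%). It was 4 without POLR2G replicate 4 (6.25%) or without GFP control replicate 4 (8.09%). The count of lower synthesis genes was also 14 without the unnumbered POLR2G library or without GFP control replicate 4. POLR2G replicate 3 was the lowest library for 8 of the 17 genes, and GFP control replicate 4 the highest for 6. The share of counts from major urinary protein (Mup) genes, abundant products of mouse hepatocytes, was 18.0%, 13.8%, 14.3% and 12.5% in the POLR2G libraries in the same order. It was 16.1%, 9.59%, 6.89% and 10.01% in GFP control replicates 1 to 4. The GFP control library with the highest Mup share was also the one with the lowest synthesis median. In the POLR2G libraries this was not so, since replicate 1 had the highest share and a higher synthesis median than replicates 3 and 4. At the other end, the library with the lowest Mup share had the highest synthesis median in both groups. These were the unnumbered POLR2G library (12.5%, −0.12) and GFP control replicate 3 (6.89%, 0.14). The part of the Mup share and of single libraries in the lower synthesis means was not tested.

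**Figure D5:**
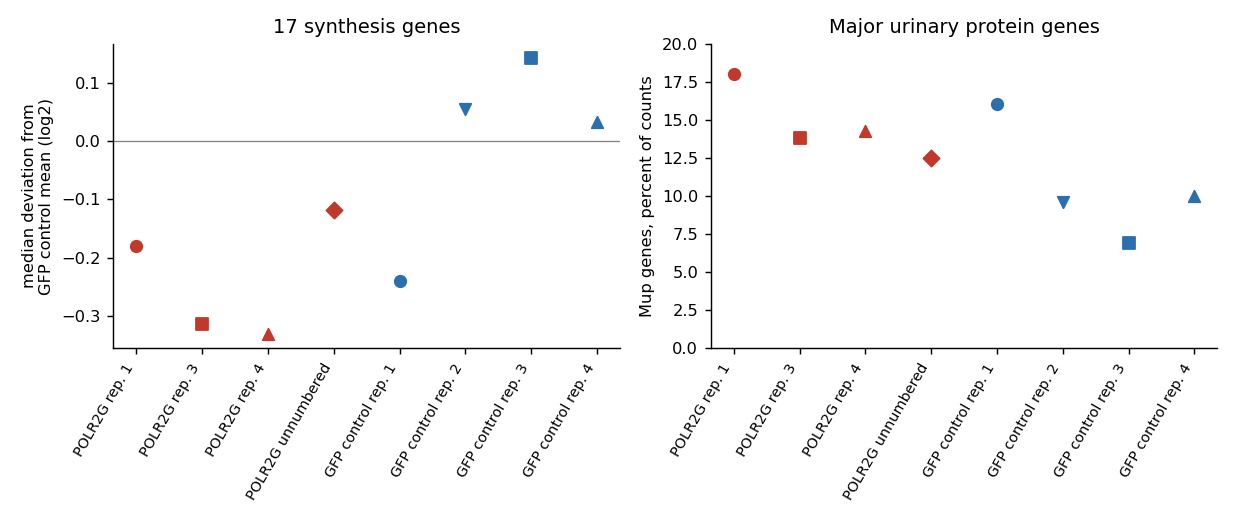
Left, the median deviation of the 17 tested synthesis genes from the GFP control mean in each library (log2 units). Right, the share of counts from Mup genes in percent. GFP control replicate 1 sits at −0.24 and 16.1%, near the POLR2G libraries, and the other 3 GFP control libraries sit above 0 on the left and below the POLR2G libraries on the right.

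A further 39 genes of sterol metabolism outside the members were listed, of which 29 were tested. Of these 16 (55.2%, against 50.7% of all genes) had a lower and 13 a higher mean in the POLR2G libraries, and their median log2 fold change was −0.012. None passed edgeR's test over all genes, DESeq2 called 1 of them (lower), and at an unadjusted p under 0.05 edgeR gave 4 lower (13.8%, against 4.1% of all genes) and 2 higher (6.90%, against 4.2%). Ubxn8, whose product takes part in protein removal from the endoplasmic reticulum, measured 29.4 ± 1.23 CPM in the POLR2G libraries and 33.9 ± 1.85 CPM in the GFP control libraries, a log2 fold change of −0.21 (SE 0.0699, edgeR adjusted p = 0.46). Lcat, the gene of the enzyme that esterifies cholesterol on HDL, measured 412 ± 34.5 CPM in the POLR2G libraries and 351 ± 19.2 CPM in the GFP control libraries (0.23, SE 0.0783, edgeR adjusted p = 0.46). For both genes the groups did not overlap, as for 10.3% of the 29 tested genes of this list and 5.51% of all genes.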

How the data were processed

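Per the labels' protocols, total RNA came from snap-frozen liver and poly-A RNA went into stranded libraries. The deposited table gives estimated counts per gene in whole numbers with no normalization, so the values were used without rounding. Salmon 1.2.1 and the builds GRCm38 and mm10 are named in the submitters' processing notes, and the annotation and how transcripts were summed to genes were not given in the sources used here. Columns were assigned by library name. The column of 1 POLR2G library carries a number that the labels do not list, so it was used without a replicate number. The labels also list 1 POLR2G replicate whose library name has no column. Symbols were found for 20817 of 20894 identifiers, and gene coordinates and transcript counts are from GENCODE M21 on GRCm38.

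The test was edgeR 4.0.16 quasi-likelihood (R 4.3.3, TMM, filterByExpr with a minimum count of 10 and total of 15, with group alone in the design and two-sided p-values). It covered 10390 genes, with Benjamini-Hochberg adjustment over all of them and a threshold of 0.05. SE is the log2 fold change divided by the square root of F. DESeq2 1.42.0 and limma 3.58.1 were alternatives. These 3 fits were tested on 1 simulated data set, where DESeq2 made more false calls than the others. Its counts were drawn with edgeR's own estimates of spread, so it cannot rank the tools on these data. Members and lists were chosen with earlier results of these data known. Values by library are given for the 3 synthesis members and the 2 members of each other role with the smallest p, and for members whose groups do not overlap. Of the genes outside the members, those past the threshold or, with none, the 2 with the smallest p were to be named. At least 1 gene that this rule takes is not reported here, and Lcat, tied with Ubxn8 in p, is given as well.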

Additional observations from a re-analysis of the deposited data

Results flagged for a closer look

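Fdft1 in GFP control replicate 1 stood apart from the other libraries of its group, at 120.0 CPM against 148 to 152 CPM in the other 3 GFP control libraries. The gap to the nearest library was 0.883 of the group's range on the log2 scale, above Dixon's critical value for 4 samples. The 52 groups checked (26 members in both groups) gave this as the only flag, and chance flags about 1 in 20 groups.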

How the results depend on the processing

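No member was called in any alternative except DESeq2, which called 1 (0 higher, 1 lower), and 1 other sterol gene (lower). Leaving out each library gave 0 members and 0 other sterol genes called. The median log2 fold change of the members stayed negative in all alternatives, from −0.14 to −0.027 when each library was left out. Over all genes, edgeR called 4 (2 higher, 2 lower), DESeq2 140 (76 higher, 64 lower), library totals only 1 (1 higher, 0 lower), and Polr2g left out 2 (1 higher, 1 lower). With the replicate number as a block, over the 6 libraries of shared numbers, 2 were called (1 higher, 1 lower). The lower count was 1 with upper quartile scaling, 1 with limma-voom and 4 with no low-count filter. Leaving out each library gave 1 to 6 calls (1 to 3 higher, 0 to 3 lower). Same-numbered libraries did not deviate together (correlation over genes of 0.067, −0.023 and 0.037 for replicates 1, 3 and 4), and the block changed no member's call. The cause of the differences between tools was not tested. Acat2 alone stayed lower in every alternative, and its sum with Acat3, chosen after seeing the data and made up mostly of Acat3, gave 0.21. The members whose direction differed follow. Library totals only gave −0.073 for Ggps1, −0.031 for Npc1, −0.077 for Scap and −0.074 for Scarb1. Upper quartile scaling gave 0.00071 for Nsdhl and 0.017 for Pmvk. Pmvk had 0.0012 with RLE, 0.0014 with DESeq2, 0.061 with limma-voom and 0.0020 with no filter, Ggps1 had −0.026 with limma-voom, and the block gave −0.12 for Ebp and −0.019 for Scarb1. Leaving out each library gave −0.11 to 0.074 for Abca1, −0.17 to 0.29 for Ebp, −0.13 to 0.23 for Ggps1, −0.14 to 0.38 for Insig2, −0.0061 to 0.12 for Npc1, −0.065 to 0.022 for Nsdhl, −0.24 to 0.31 for Pmvk, −0.074 to 0.090 for Scap and −0.017 to 0.012 for Scarb1. Pmvk, Insig2, Msmo1 and Ebp had the highest SEs of the members tested.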
